A study of Mus musculus with 22 samples.

Results

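The 10 genes described here decide how an intestinal cell handles iron and how it keeps that iron from oxidizing its membranes. They are Slc7a11, Gpx4, Aifm2, Acsl4, Tfrc, Slc40a1, Fth1, Ftl1, Ncoa4 and Hmox1. They were chosen by name, as a set of ferroptosis guards and iron-handling genes, with earlier results of these data known. All 10 were found among the 52636 genes of the deposited RNA-seq table. Their values were read in all 22 libraries.

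The libraries were made from organoids grown from the epithelium of the adult wild-type mouse duodenum and treated, or not, with cold atmospheric plasma (CAP), an ionized helium gas rich in reactive oxygen and nitrogen species. Each organoid line came from 1 mouse, and the study's methods give the outbred CD1 strain for its adult mice. Untreated organoids gave 4 libraries, 1 from each of lines 1 to 4, and each of 6 treated groups gave 3 libraries, from lines 1, 2 and 4. Per the labels, lines 1 and 2 were at passage 12 and 14 and lines 3 and 4 at passage 4. The study's list of organoid lines gives a lower passage for its low-passage lines and numbers the lines in another way, so line numbers here follow the sample labels. The jet ran for 60 s at 50 W. In direct CAP the plume was held over the culture on day 1, and the medium was exchanged after 30 min or after 24 h. In indirect CAP, untouched organoids received medium taken from another treated organoid culture. In the plasma-activated medium (PAM) groups they received medium that had been treated with no cells in it. Both kinds of medium were given from day 1 or from day 2, for 24 h per the study's methods, and cultures ended on day 3. The day-2 exposures therefore ran until collection, whereas the day-1 exposures were followed by fresh medium. For both media given from day 1 the labels state 0.5 h in place of 24 h, and the time at which the 30 min group was collected is not certain. The labels call the cells stem cells, but these are whole organoids that also hold differentiated cells. In such bulk libraries, fewer cells of a type and less RNA per cell cannot be told apart.

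Ferroptosis is a form of cell death in which iron drives the oxidation of polyunsaturated phospholipids. SLC7A11 brings in cystine for glutathione, GPX4 uses glutathione to reduce lipid peroxides, AIFM2 (also called FSP1) protects membranes through reduced coenzyme Q without glutathione, and ACSL4 loads the polyunsaturated fatty acids that can be oxidized. Duodenal cells are the site of dietary iron uptake. They take iron from blood through the transferrin receptor TFRC, store it in ferritin (heavy chain FTH1, light chain FTL1), release it from ferritin through NCOA4, free it from heme through HMOX1 and export it through ferroportin, SLC40A1.

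Several of these genes carry regulatory sequences that a reader needs beside their RNA values. Iron-responsive elements are short RNA hairpins bound by iron regulatory proteins when iron is scarce. At the 5′ end of an mRNA they block translation, which RNA-seq does not measure, and at the 3′ end they stabilize the mRNA. The hairpin was searched as a bulged C, an upper stem of 5 base pairs (G-U pairs allowed) and a loop starting with CAGTG on the sense strand of GENCODE vM21 transcripts. Of 21901 protein-coding genes, 0.142% held it in a 5′ UTR and 0.589% in a 3′ UTR. It was found in 4 of the 10 genes, and their elements are printed 5′ to 3′ as DNA letters with the bulged C to the end of the upper stem in capitals. The first 3 lie in the 5′ UTR of Fth1 (chr19:9982732-9982760, plus strand), Ftl1 (chr7:45459779-45459807, minus strand) and Slc40a1 (chr1:45925465-45925493, minus strand), and the last 4 in the 3′ UTR of Tfrc (chr16:32631219-32631247, chr16:32631598-32631626, chr16:32631663-32631691 and chr16:32631710-32631738, plus strand), all on GRCm38.
Fth1: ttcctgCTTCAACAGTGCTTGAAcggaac
Ftl1: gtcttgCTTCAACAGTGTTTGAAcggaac
Slc40a1: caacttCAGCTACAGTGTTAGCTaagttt
Tfrc, element 1: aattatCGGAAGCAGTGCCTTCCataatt
Tfrc, element 2: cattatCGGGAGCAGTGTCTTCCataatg
Tfrc, element 3: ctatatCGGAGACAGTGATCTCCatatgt
Tfrc, element 4: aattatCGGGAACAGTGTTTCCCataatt

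Promoters were read from RefSeq (GRCm38.p6) as the 250 bases before and 50 after a start site, and the table held 15 of them for 8 of the 10 genes, with none for Hmox1 or Slc40a1. The C/EBP-ATF response element, which ATF4 binds during amino acid shortage and stress, was searched on both strands as TGATGNAA. It stood in 3.97% of all 32851 promoters, and Slc7a11 held it in both orientations. Among 80 other pathway or marker genes with a promoter in the table, 1 held it, namely Chac1. The Slc7a11 stretch lies on the minus strand at chr3:50443645-50443687, from 74 to 32 bases before the start site, and the Chac1 stretch on the plus strand at chr2:119351041-119351064. They are shown because these 2 genes of cystine and glutathione supply had the largest log2 fold changes of that group in the day-1 24 h exposures, and capitals mark the element, which reads TTGCATCA where it lies on the opposite strand.
Slc7a11: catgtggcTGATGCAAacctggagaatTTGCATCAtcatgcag
Chac1: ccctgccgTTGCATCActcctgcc
The antioxidant response element TGACNNNGC, bound by NRF2, was in 12.4% of all promoters, on either strand. Among the 8 genes with a promoter in the table it was found only in Ncoa4. Sequence farther from the start sites was not searched, nor was any promoter of Hmox1 or Slc40a1. The search also covered the hypoxia response element core ACGTG and the AP-1 site TGANTCA. The former stood in 19.6% of all promoters and, among the members, in Tfrc and Ncoa4. The latter stood in 7.81% of all promoters and in no member. A match of letters is a description and not a binding site.

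The values are read counts that the authors scaled to a common total of 20 M per library (CP20M). The study's legends describe this unit as also taken per kilobase of transcript, but the deposited values are not divided by gene length: whole numbers that stand for a pair of read counts were used 1.90, 1.99 and 1.92 times as often (medians of 20 libraries) as their neighbours in genes of short, middle and long exon length (3 equal classes), with the spacing read from the other classes. That is one step size for genes of every length. About 20.0 to 28.7 M reads stood behind each library, estimated from the spacing of the low values, and no library was a copy of another. Epithelial markers (Epcam, Krt8, Krt18, Cdh1, Vil1) summed to between 82211 and 145331 CP20M. The 6 red cell markers summed to 17 to 49 and the 8 markers of stroma, blood and vessels to 12 to 53 CP20M. Summed stem cell markers (Lgr5, Olfm4, Smoc2, Ascl2, Axin2) were lower after treatment, from 32557 to 38876 CP20M in untreated libraries to 20274 to 32015 after direct CAP for 30 min, 5313 to 10861 after direct CAP for 24 h, 5936 to 15040 with indirect CAP from day 1, 2703 to 3953 when it was given from day 2, 1306 to 2640 with PAM from day 1 and 757 to 2747 with PAM from day 2. Summed enterocyte markers were 103092 to 121906 CP20M in untreated libraries and 139058 to 184795 with PAM from day 2, without overlap, and overlapped the untreated range in the other groups. Such a sum follows its most abundant genes. With PAM from day 2 only 2 of the 8 enterocyte markers had a positive log2 fold change, and the median was -0.62. With indirect CAP from day 2 it was 1 of the 8, with a median of -1.07. The mitochondrial share of the values was 1.24 to 1.54% in untreated libraries, 0.720 to 0.826% with indirect CAP from day 2, 0.789 to 1.02% with PAM from day 1 and 0.668 to 0.880% with PAM from day 2. The part of these differences in the values of the 10 genes was not tested. The untreated libraries labelled line 1 and line 2 resembled the treated libraries of each other's line (median r of 0.422 between deviations from group means, 12 pairs) more than those of their own (0.0751 and 0.132, 6 pairs each), so their labels may be exchanged. Ratios to the same line and fits with a line block rest on these labels, and comparisons without the block do not. The PAM day 2 library of line 4 stood apart from its group for several of the genes, as given below.

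Untreated organoids expressed ferritin far above the other genes. Per kilobase of main transcript, the scale on which genes can be compared, the mean over the 4 untreated libraries was 19944 ± 1721 (SD, n = 4) CP20M for Fth1 and 17173 ± 1567 for Ftl1, and the ranges of the 2 overlapped. Gpx4 followed at 4483 ± 796, Tfrc at 2721 ± 77.3, Slc40a1 at 1549 ± 245 and Ncoa4 at 617 ± 79.5. The remaining genes were low, with Acsl4 at 128 ± 25.2, Slc7a11 at 99.3 ± 21.8, Hmox1 at 68.0 ± 27.5 and Aifm2 at 47.2 ± 7.62. Ranges of neighbours overlapped from Acsl4 down to Aifm2, so the order of these 4 is not settled beyond their spread. With the length of all annotated exons in place of the main transcript, Ftl1 stood above Fth1 and the rest of the order stayed. The level of Ftl1 may also be understated. The rows Gm22133 and Gm10252, which lie on its locus, held 5687 to 7091 and 5434 to 6547 CP20M in untreated libraries and may share its reads. The order of the 2 ferritin genes is therefore not settled.

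**Figure D1:**
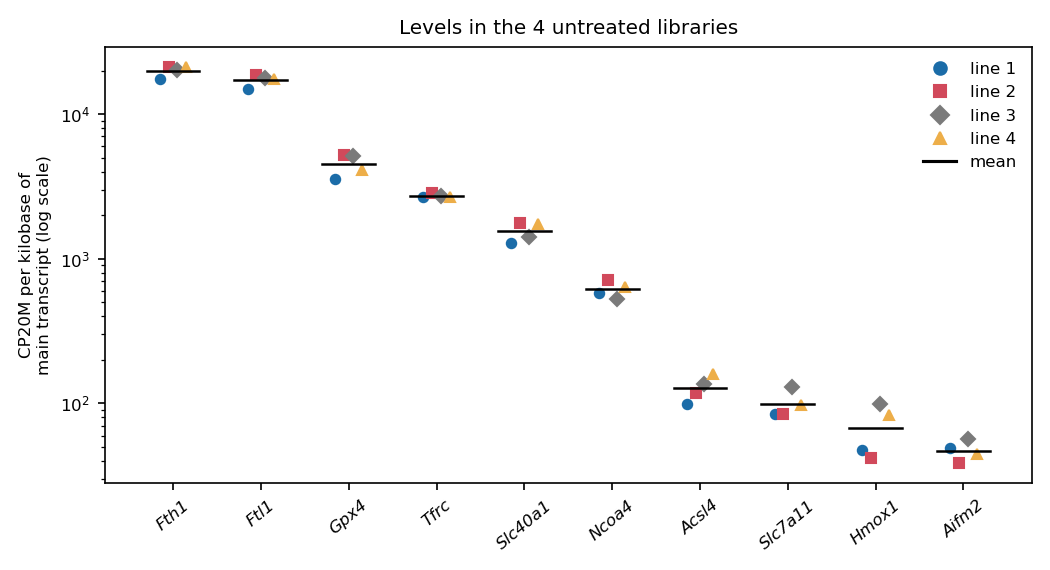
Level of each gene in the 4 untreated libraries, as CP20M per kilobase of main transcript on a log scale, with 1 symbol per organoid line and a bar at the mean. The means of Fth1 and Ftl1 are 19944 and 17173, and Acsl4, Slc7a11, Hmox1 and Aifm2 lie below all values of Ncoa4.

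Slc7a11, on chr3:49892526-50443614 (minus strand), encodes the cystine/glutamate antiporter and showed the clearest response of the 10 genes. Untreated lines 1 to 4 had 779, 784, 1206 and 895 CP20M. After direct CAP for 30 min, lines 1, 2 and 4 had 1414, 1762 and 2746, already above every untreated library. Direct CAP for 24 h gave 4306, 4148 and 4809, and with indirect CAP from day 1 they had 4325, 4202 and 5006. PAM from day 1 gave 5901, 4640 and 5434. The day-2 exposures reached 4275, 8310 and 6083 with indirect CAP and 7147, 10304 and 6941 with PAM. All 18 treated libraries thus stood above all 4 untreated ones, by 1.82 to 13.1 times the untreated library of the same line, or 1.80 to 13.2 times with untreated lines 1 and 2 exchanged.

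Against untreated, Slc7a11 rose by a log2 fold change of 2.39 (SE 0.12) in the 9 libraries of the day-1 24 h exposures (direct CAP for 24 h, then indirect CAP and PAM, both from day 1). These 9 libraries came from 3 lines and were fitted without a block for the line, so they were not 9 independent cultures. The adjusted p of limma's trended test was 1.18e-07, the smallest p of all 18490 genes tested. Group by group it rose by 2.29 (SE 0.16) after direct CAP for 24 h, 2.32 (SE 0.15) and 2.73 (SE 0.23) with indirect CAP from day 1 and day 2, and 2.55 (SE 0.16) and 3.15 (SE 0.20) with PAM from day 1 and day 2, with adjusted p from 5.54e-05 to 0.000848. Direct CAP for 30 min gave 1.07 (SE 0.23) with an adjusted p of 0.102, which missed the threshold. A replicate block for the line gave 1.21 with an adjusted p of 0.0579 as labelled, and 0.00150 with untreated lines 1 and 2 exchanged, an alternative chosen after seeing the data. The direct CAP 24 h libraries lay 1.22 (SE 0.23) above the 30 min ones on the log2 scale. That difference had an adjusted p of 0.205, and 0.00481 when the line entered the fit as a replicate block.

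**Figure D2:**
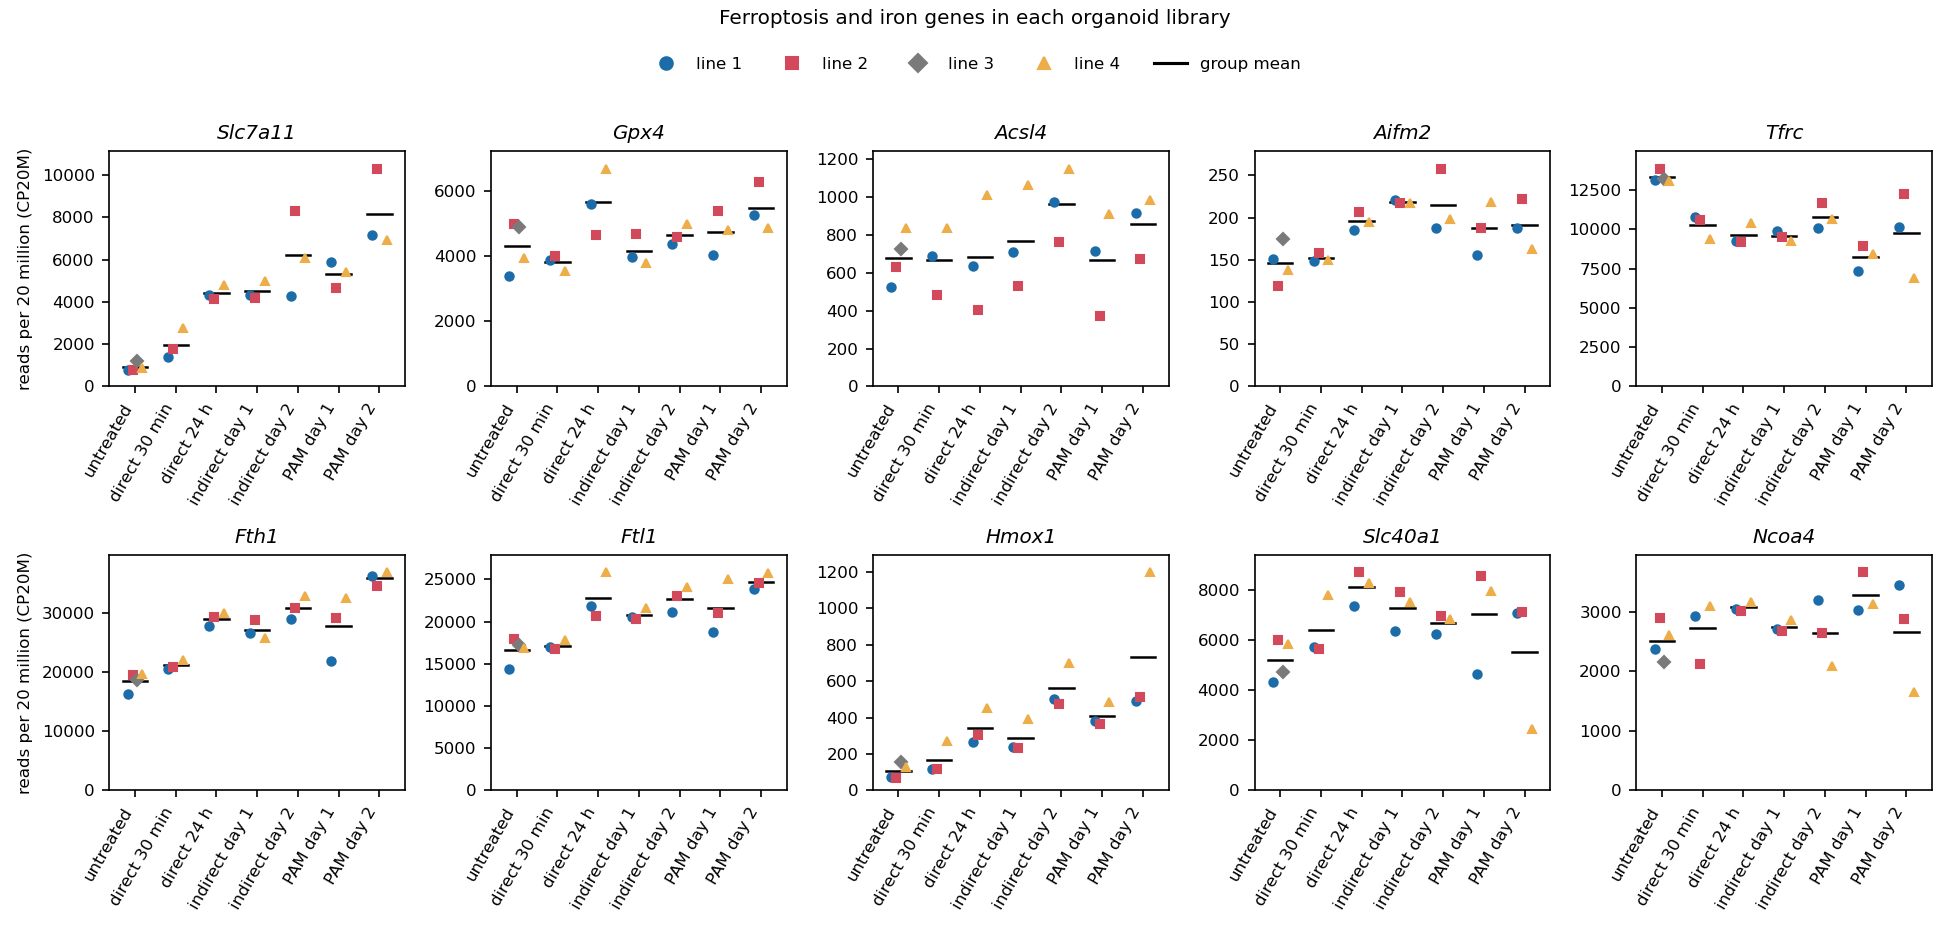
CP20M of each gene in every library, by group, with 1 symbol per organoid line and a bar at the group mean; each axis starts at 0. The means of Slc7a11, Hmox1 and Fth1 are above the untreated mean in every treated group, without a steady rise from left to right. Tfrc is lower in all treated libraries, and line 4 of PAM day 2 is apart for Hmox1, Slc40a1 and Ncoa4.

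Gpx4, on chr10:80047166-80056439 (plus strand), encodes the selenoenzyme that reduces phospholipid peroxides. Its value was 3400, 4981, 4883 and 3932 CP20M in untreated lines 1 to 4 and 3796 to 6686 in the 9 libraries of the day-1 24 h exposures. These ranges overlapped, and only 3 of the 9 libraries exceeded all untreated ones. Its log2 fold change was 0.17 (95% interval -0.14 to 0.48), with an adjusted p of 0.401. No treated group passed the threshold, and the group values ran from -0.16 (SE 0.14) after direct CAP for 30 min to 0.40 (SE 0.17) after direct CAP for 24 h. A processed copy of Gpx4 on the same chromosome, AC153368.1 (chr10:45875291-45876086), held 263 to 522 CP20M, and reads may be split between the copies. With that row added, also chosen after seeing the data, Gpx4 in the day-1 24 h exposures came to 0.16 (SE 0.15).

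Aifm2, on chr10:61715263-61739260 (plus strand), encodes the glutathione-independent guard and had the lowest mean of the 10 genes per kilobase, with a range that overlapped that of Hmox1. It had 151, 119, 175 and 138 CP20M in untreated lines 1 to 4. Lines 1, 2 and 4 had 185, 207 and 195 after direct CAP for 24 h, and with indirect CAP from day 1 they had 221, 217 and 217. Of the 9 libraries of the day-1 24 h exposures, 8 exceeded all untreated ones. Its log2 fold change of 0.46 (SE 0.12, adjusted p = 0.0106) stayed under 1 log2 unit, that is 2-fold.

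Acsl4, on chrX:142317993-142390535 (minus strand), supplies the peroxidizable phospholipids. Untreated lines 1 to 4 had 525, 628, 723 and 837 CP20M and the day-1 24 h exposures 374 to 1061. In every treated group line 4 was highest and line 2 lowest. The log2 fold change in the day-1 24 h exposures was -0.01 (95% interval -0.56 to 0.54, adjusted p = 0.982). In the day-2 groups it was 0.50 (SE 0.18, adjusted p = 0.0546) with indirect CAP and 0.34 (SE 0.19, adjusted p = 0.175) with PAM.

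Tfrc, on chr16:32608920-32632794 (plus strand), encodes the receptor for transferrin-bound iron and was lower in every treated library than in any untreated one. Untreated lines 1 to 4 were close together, at 13116, 13865, 13192 and 13047 CP20M. After direct CAP for 30 min, lines 1, 2 and 4 had 10778, 10560 and 9392. The 24 h libraries had 9264, 9213 and 10369. With PAM from day 1 they had 7314, 8913 and 8422. PAM from day 2 spread widely, with 10115, 12270 and 6887. The log2 fold change in the day-1 24 h exposures was -0.55 (SE 0.08, adjusted p = 0.000495), and over the groups it lay between -0.30 (SE 0.08) with indirect CAP from day 2 and -0.70 (SE 0.09) with PAM from day 1. None of these reached 2-fold, and with PAM from day 2 the value of -0.49 (SE 0.18) had an adjusted p of 0.0529. Tfrc is the gene with 4 iron-responsive elements at its 3′ end printed above.

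Fth1, on chr19:9980598-9985098 (plus strand), encodes the ferritin chain that oxidizes iron for storage. It had 16225, 19508, 18676 and 19704 CP20M in untreated lines 1 to 4, and all 18 treated libraries were above these. Direct CAP for 30 min gave 20583, 20811 and 22061 in lines 1, 2 and 4, 24 h of direct CAP gave 27729, 29413 and 30074, and the PAM day 2 libraries held 36253, 34626 and 36869. The log2 fold change was 0.59 (SE 0.10, adjusted p = 0.000967) in the day-1 24 h exposures, 0.74 (SE 0.10, adjusted p = 0.000707) with indirect CAP from day 2 and 0.96 (SE 0.11, adjusted p = 0.000454) with PAM from day 2. At 30 min of direct CAP it was 0.19 (SE 0.10, adjusted p = 0.251).

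Ftl1, on chr7:45457944-45459884 (minus strand), encodes the ferritin chain that helps form the iron core. Untreated lines 1 to 4 had 14427, 17888, 17247 and 16930 CP20M. The 3 libraries of direct CAP for 30 min lay within that range, at 16971, 16741 and 17787 in lines 1, 2 and 4. The other 15 treated libraries were above it, from 18810 in line 1 with PAM from day 1 to 25830 in line 4 after direct CAP for 24 h. The log2 fold change was 0.38 (SE 0.09, adjusted p = 0.00712) in the day-1 24 h exposures and 0.58 (SE 0.11, adjusted p = 0.00327) with PAM from day 2. Other rows of the table lie on the same locus. Gm22133 (chr7:45458089-45458197, minus strand) is inside Ftl1 and Gm10252 (chr7:45459469-45460300, plus strand) covers its first bases on the other strand, and the strand setting of the counting is not given in the sources used here. They held 5687 to 7091 and 5434 to 6547 CP20M in untreated libraries and may share reads with Ftl1. Added to Ftl1, an alternative chosen after seeing the data, they gave 0.40 (SE 0.10) in the day-1 24 h exposures. Ftl1-ps1, a pseudogene, held 74 to 310 CP20M in all 22 libraries, and the other ferritin pseudogene and Fthl17 rows held at most 19.

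Ncoa4, on chr14:32159865-32179855 (plus strand), encodes the receptor that carries ferritin to the lysosome for iron release. It had 2369, 2903, 2149 and 2604 CP20M in untreated lines 1 to 4, and 6 of the 9 libraries of the day-1 24 h exposures exceeded these. On the log2 scale the fold change was 0.28 (SE 0.09, adjusted p = 0.0296) there, 0.39 (SE 0.12, adjusted p = 0.0288) with PAM from day 1 and 0.03 (SE 0.24, adjusted p = 0.931) with PAM from day 2. The PAM day 2 libraries of lines 1, 2 and 4 had 3446, 2879 and 1653, so line 4 was below every untreated library and line 1 above. None of these differences reached 2-fold.

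Slc40a1, on chr1:45908068-45926523 (minus strand), encodes ferroportin, the iron exporter at the basal side of the enterocyte. Untreated lines 1 to 4 had 4310, 5986, 4738 and 5851 CP20M. After direct CAP for 24 h, lines 1, 2 and 4 had 7349, 8699 and 8264, all above them. With indirect CAP they had 6373, 7902 and 7511 from day 1 and 6238, 6962 and 6832 from day 2, again all above. With PAM the lines parted. From day 1 they had 4635, 8557 and 7970, and from day 2 7084, 7107 and 2439. On the log2 scale the fold change was 0.51 (SE 0.15, adjusted p = 0.0181) in the day-1 24 h exposures and 0.64 (SE 0.13, adjusted p = 0.0159) after direct CAP for 24 h. With PAM from day 2 it was -0.06 (SE 0.36) with all libraries and 0.46 without line 4 of that group, so that 1 library set its sign.

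Hmox1, on chr8:75093621-75100589 (plus strand), encodes heme oxygenase, which opens the heme ring and sets its iron free. Untreated lines 1 to 4 had 75, 66, 155 and 131 CP20M. After direct CAP for 30 min, lines 1, 2 and 4 had 120, 116 and 273, of which only line 4 was above all untreated libraries. Direct CAP for 24 h gave 264, 305 and 454, and with indirect CAP 236, 232 and 393 from day 1 and 501, 477 and 703 from day 2. With PAM they had 383, 367 and 485 from day 1 and 492, 512 and 1198 from day 2. The 15 libraries of these 5 groups were all above all untreated ones, and line 4 was the highest of each group. Against the untreated library of the same line, all 18 treated libraries were higher, by 1.60 to 9.15 times, or 1.55 to 9.15 times with untreated lines 1 and 2 exchanged.

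Hmox1 rose by a log2 fold change of 1.73 (SE 0.25, adjusted p = 0.000353) in the day-1 24 h exposures, 2.45 (SE 0.31, adjusted p = 0.000533) with indirect CAP from day 2, 2.02 (SE 0.30, adjusted p = 0.00137) with PAM from day 1 and 2.73 (SE 0.40, adjusted p = 0.00133) with PAM from day 2. At 24 h of direct CAP it was 1.72 (SE 0.33, adjusted p = 0.0120) and with indirect CAP from day 1 it was 1.46 (SE 0.33, adjusted p = 0.0209), both short of the adjusted p of 0.01. In a fit with a replicate block for the line these became 1.93 (adjusted p = 0.00416) and 1.67 (adjusted p = 0.00558) and passed. They also passed with untreated lines 1 and 2 exchanged (adjusted p of 8.35e-07 and 1.63e-05). That exchange was chosen after seeing the data, for its closer likeness within lines. This can by itself lower the p of a blocked fit, so nothing is read from the smaller values.

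**Figure D3:**
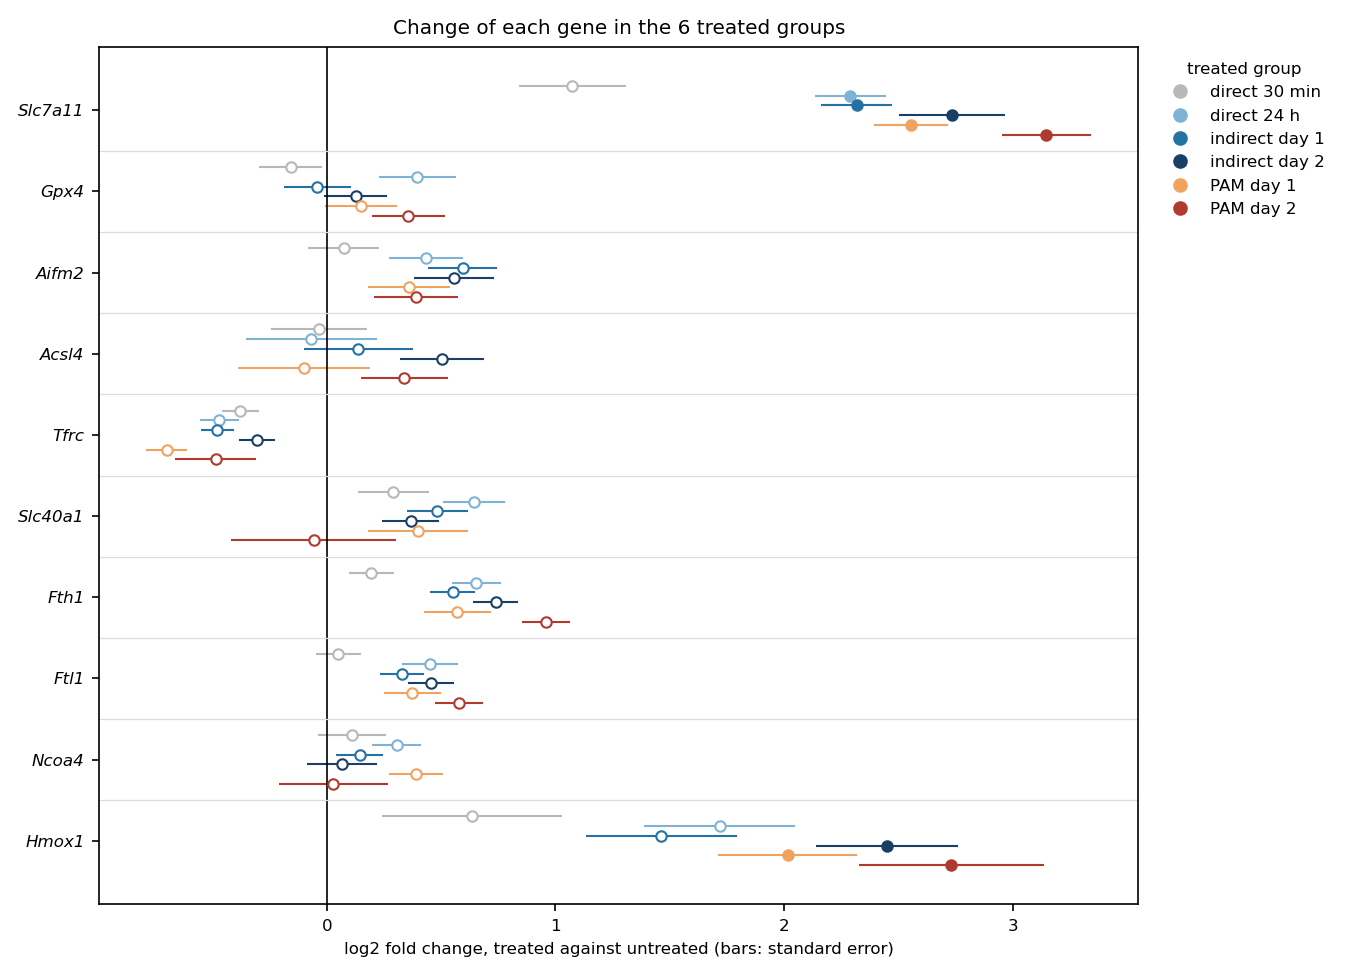
Log2 fold change of each gene in each treated group (3 libraries) against the same 4 untreated libraries, with the standard error as a bar; filled points are at least 2-fold changed with an adjusted p below 0.01. Filled points are found for Slc7a11 in 5 groups and for Hmox1 in 3, and all 6 points of Tfrc lie below 0.

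Counted against the threshold (at least 2-fold, with an adjusted p below 0.01), 2 of the 10 genes, Slc7a11 and Hmox1, were past it in the day-1 24 h exposures, where 6.34% of all genes tested were past it. By a looser rule, an adjusted p below 0.05 whatever the fold, 7 were higher and Tfrc was lower, where 33.5% of all genes passed. The 2 not past the looser rule were Gpx4 and Acsl4. The median log2 fold change of the 10 genes was 0.42, beside -0.05 over all genes. The 10 genes were chosen with earlier results of these data known, so these shares and medians are no test of the set.

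In the single groups, which all share the same 4 untreated libraries, the count was 0 after direct CAP for 30 min (0.00564% of all genes by either rule). It was 1, Slc7a11, after direct CAP for 24 h (2.17% of all genes) and with indirect CAP from day 1 (1.31%). It was 2, Slc7a11 and Hmox1, with indirect CAP from day 2 (11.9%), with PAM given from day 1 (10.2%) and PAM from day 2 (17.3%). By the looser rule 6 of the 10 genes passed after direct CAP for 24 h (17.3% of all genes), 7 with indirect CAP from day 1 (20.6%), 7 with indirect CAP from day 2 (43.8%), 6 with PAM from day 1 (41.8%) and 4 with PAM from day 2 (47.6%). The share of genes past the threshold thus differed widely between the groups, and these shares rested on single libraries. Of all genes, 376 were past the threshold after direct CAP for 24 h, but 34 without line 1 of that group, 136 without its line 4, and 108, 50, 162 and 68 without untreated lines 1 to 4. With indirect CAP from day 1 there were 233, but 48, 50 and 67 without its lines 1, 2 and 4, and 100, 25, 110 and 28 without untreated lines 1 to 4. In the day-1 24 h exposures 1173 genes were past it, but 651 and 730 without untreated line 1 or 2. With line 4 of the treated group left out, 1357 in place of 2127 passed with indirect CAP from day 2, and 1134 in place of 1775 with PAM from day 1. The calls of Slc7a11 and Hmox1 were the same in all of these fits.

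Treated groups were also compared with each other. Without a block for the line, no gene of the 10 passed either rule when direct CAP for 24 h was set against 30 min (0% of all genes by both rules), indirect CAP from day 1 against 24 h of direct CAP (0% by both rules), PAM from day 1 against 24 h of direct CAP (0% and 0.258%), indirect CAP from day 2 against day 1 (0.0111% and 3.37%), or PAM from day 2 against day 1 (0% by both rules). With the replicate block, Slc7a11 passed in the first of these (1.22, adjusted p = 0.00481). It differed least between indirect CAP from day 1 and direct CAP for 24 h, with a log2 difference of 0.03 (95% interval -0.24 to 0.30). Hmox1 was higher with indirect CAP from day 2 than from day 1 by 0.99 (SE 0.25, adjusted p = 0.0813), and by 0.99 (adjusted p = 0.000150) when the line entered the fit as a replicate block, just short of the fold threshold.

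The partners of Slc7a11 gave mixed values. Of 9 other genes of cystine and glutathione supply, 1 rose past the threshold in the day-1 24 h exposures and none fell, where 4.27% of all genes tested rose and 2.07% fell, and the median log2 fold change was 0.13. On a count of 1 nothing is read against that background. In the day-2 groups 2 rose with indirect CAP (6.2% of all genes) and 2 with PAM (6.82%), and none fell in any group. Chac1 was the gene that rose in the day-1 24 h exposures. It breaks glutathione down, and its promoter element is printed above. It had 132 to 180 CP20M in untreated libraries and 473 to 1100 in the 9 treated ones, a log2 fold change of 2.05 (SE 0.22, adjusted p = 5.00e-05). Slc3a2, the heavy chain that carries SLC7A11 to the membrane, went from 2430 to 2793 CP20M to 4014 to 5466 (0.82, SE 0.09, adjusted p = 5.23e-05), with no overlap but under the fold threshold. It passed in both day-2 groups (1.05 with indirect CAP, 1.24 with PAM). Gclm, looked at after its values were seen and a subunit of the rate-limiting enzyme of glutathione synthesis, had a log2 fold change of 0.01 (adjusted p = 0.938). Gclc and Gss, which also serve that synthesis, rose by 0.43 (adjusted p = 0.0197) and 0.40 (adjusted p = 0.0105). By the looser rule 4 of the 9 genes were higher and 2 lower, beside 14.8% and 18.7% of all genes.

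Other guards against lipid peroxidation were split. Of 10 genes, 2 rose past the threshold in the day-1 24 h exposures and none fell, beside the same 4.27% and 2.07% of all genes, with a median log2 fold change of 0.07. With PAM from day 2, 1 rose and 2 fell past the threshold (median -0.15), where 6.82% of all genes rose and 10.5% fell. With indirect CAP from day 2, 1 rose past it, where 6.2% of all genes rose, and none fell (median -0.25). By the looser rule 2 were higher and 5 lower there, beside 20.3% and 23.5% of all genes. Gch1, which makes the antioxidant cofactor tetrahydrobiopterin, had 452 ± 155 (SD, n = 4) CP20M in untreated libraries and 1591 ± 616 (SD, n = 9) in the day-1 24 h exposures (log2 fold change 1.78, SE 0.32, adjusted p = 0.00125). Mboat1, which remodels phospholipids towards monounsaturated ones, rose by 1.43 (SE 0.34, adjusted p = 0.00605), from 804 to 1943 CP20M to 1811 to 6556, with overlap.

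Genes that supply oxidizable lipids moved in both directions. Of 17 genes, 15 passed the filter on low values. The desaturases that make polyunsaturated fatty acids fell, Fads1 by 2.19 on the log2 scale (SE 0.42, adjusted p = 0.00193) and Fads2 by 1.27 (SE 0.18, adjusted p = 0.000338). Fads1 had 2329 to 3448 CP20M in untreated libraries and 196 to 1445 in the day-1 24 h exposures, without overlap, and also passed in the 5 single groups other than direct CAP for 30 min. Aloxe3, a lipoxygenase, had 2 to 7 CP20M in untreated libraries and 7 to 40 in the day-1 24 h exposures. It passed the filter on low values only through treated libraries, so its difference is given as a description. The median of the list was 0.02.

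Of 16 further genes of iron uptake, reduction and transport, 13 passed the filter, 1 rose past the threshold in the day-1 24 h exposures and none fell, which is near the 4.27% and 2.07% of all genes, with a median log2 fold change of 0.20. With PAM from day 1, 1 rose and 1 fell (median 0.05), where 4.83% of all genes rose and 5.4% fell. With PAM from day 2, 1 rose and 1 fell (median -0.24), where the shares were 6.82% and 10.5%. The gene that rose in the day-1 24 h exposures was Cybrd1, the duodenal ferric reductase of the apical membrane, which went from 482 to 1600 CP20M to 1665 to 8863 (1.66, SE 0.38, adjusted p = 0.00446) without overlap. Slc11a2 (DMT1), the importer it works with, had 4741 to 10799 CP20M in untreated libraries and 2416 to 7212 in treated ones, an overlap, and a log2 fold change of -0.61 (SE 0.27, adjusted p = 0.0905). Heph, the ferroxidase that works with ferroportin, had 3084 to 4253 and 3820 to 6478 CP20M, a log2 fold change of 0.45 (SE 0.13, adjusted p = 0.0194). Hamp, the gene of the hormone hepcidin, also named after its values were seen, was at 0 to 2 CP20M in all libraries.

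Neither the 5 genes of iron sensing nor the 14 of heme synthesis, transport and breakdown held a gene past the threshold in the day-1 24 h exposures, with medians of 0.13 and -0.13. Ireb2, which encodes an iron regulatory protein that binds the elements printed above, had 2990 to 3174 CP20M in untreated libraries and 3032 to 3979 in treated ones (0.13, SE 0.07, adjusted p = 0.199). Of 6 transcription factors of these genes, none passed, with a median of 0.05. Nfe2l2 (NRF2) went from 6429 to 6987 CP20M to 7676 to 9083 (0.35, SE 0.07, adjusted p = 0.00207), without overlap but far under 2-fold. With indirect CAP and PAM from day 2 it had 5621 to 6464 and 3752 to 6071 CP20M, below the day-1 libraries. The PAM values from day 2 also lay below all untreated libraries, and those of indirect CAP overlapped only the lower end of the untreated range. Atf4, looked at after its values were seen, was past the threshold in the day-2 groups, at 6513 to 11661 CP20M with indirect CAP and 7558 to 13121 with PAM against 3260 to 3660 in untreated libraries. In the day-1 24 h exposures its log2 fold change was only 0.16 (SE 0.15, adjusted p = 0.437). After direct CAP for 30 min it was -0.26 (adjusted p = 0.300).

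**Figure D4:**
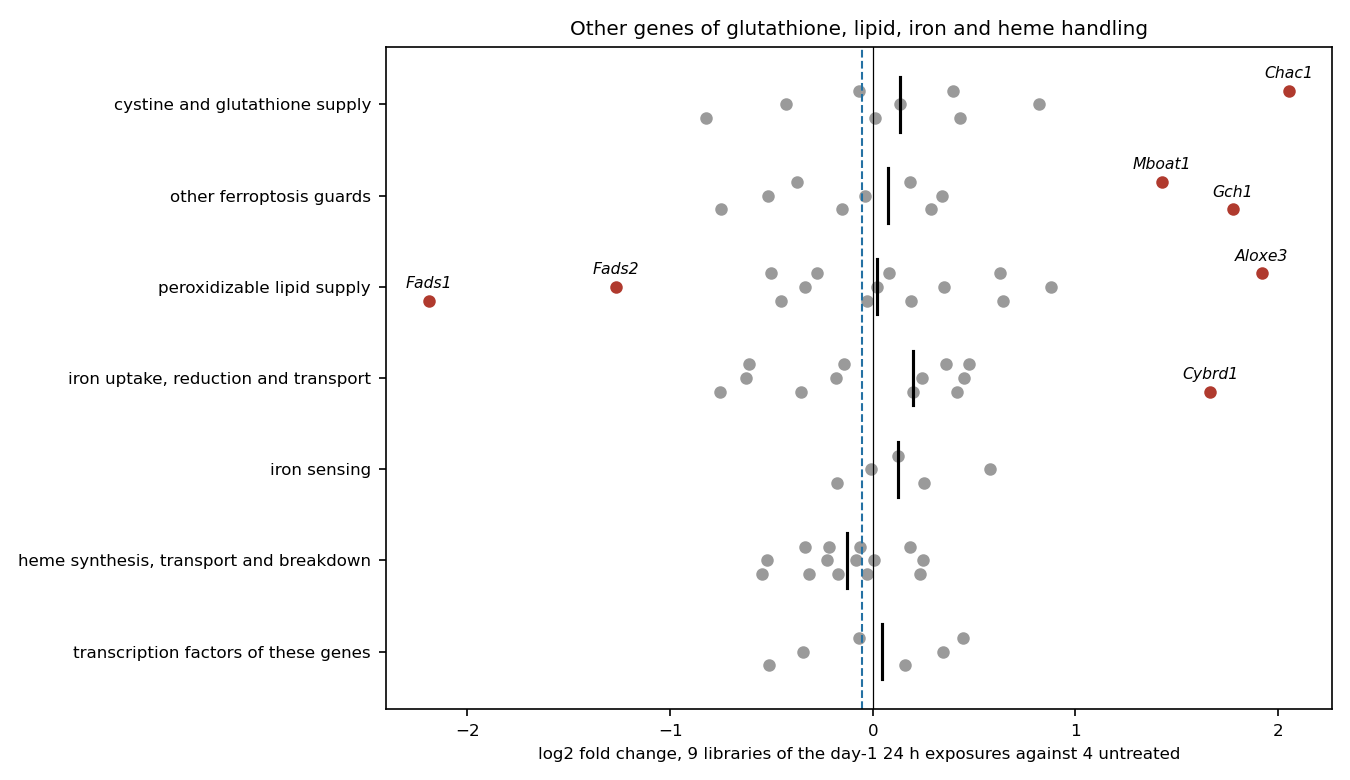
Log2 fold change of the other genes of each pathway list in the 9 libraries of the day-1 24 h exposures against the 4 untreated ones. Red points are past the threshold and named (Aloxe3 passed the filter on low values only through treated libraries), black bars are list medians, and the dashed line is the median of all genes at -0.05.

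The genes whose pattern over the 22 libraries was most like that of Slc7a11 were Plk3, a stress-induced kinase (Pearson r = 0.979), and Areg, a growth factor (r = 0.970). For Hmox1 they were Atp6v1a, a subunit of the proton pump of lysosomes (r = 0.974), and Cxcl16, a chemokine (r = 0.974). For Fth1 it was Ctsb, a lysosomal protease (r = 0.962), and for Tfrc it was Adh5 (r = 0.931). For Ftl1 and Gpx4 the nearest rows were the overlapping Gm10252 (r = 0.998) and the copy AC153368.1 (r = 0.956). The 22 points share 4 lines and 7 group means, so these values describe likeness and carry no p.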

How the data were processed

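Per the study's methods, the authors aligned paired-end reads to GRCm38 with STAR and counted reads per gene with HTSeq and the Ensembl annotation. The submitters' processing notes name STAR 2.5.3a, HTSeq 0.9.1 and also Trimmomatic 0.36, a read trimmer. The deposited values are a score, CP20M: gene counts that the authors scaled to 20 M per library and rounded up to whole numbers, with no division by gene length, as tested on the spacing of the low values, although the study's legends describe the unit as per kilobase. Raw counts were not used here, so no count model was fitted. The members and gene lists were chosen with earlier results of these data known.

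Values were taken as log2(value + 1), so fold changes of low genes are understated. Genes with a value of at least 10 in at least 3 of the libraries compared were fitted with limma 3.58.1 in R 4.3.3 (trended empirical Bayes, two-sided) on the groups compared, and p-values were adjusted by Benjamini-Hochberg over all genes fitted. A gene was past the threshold if it changed at least 2-fold with an adjusted p below 0.01, and by the looser rule if its adjusted p was below 0.05. All 10 members passed the filter and are named. Pathway genes are named if past the threshold in the day-1 24 h comparison (at most 4 per list, by size of change), with Slc3a2, Slc11a2, Cybrd1, Heph, Nfe2l2 and Ireb2 whatever their values, and, as a description, the genes most correlated with a member. The 9 libraries of the day-1 24 h exposures come from 3 lines and are not 9 independent cultures. As alternatives, values were quantile-normalized, the pseudocount was raised to 10, the filter was dropped, or the fit was changed to 1 fit of all 7 groups, the line as a replicate block, the looser rule and leaving out each library.

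Equal line numbers mark the same mouse, so they pair the samples. Over 45 pairs of treated libraries of the same line, deviations from the group means correlated with a median r of 0.564. Untreated lines 1 and 2 correlated weakly with their own line (median r of 0.0751 and 0.132) and better with each other's (0.422, 12 pairs). Groups and lines were kept as labelled, and a block with these 2 exchanged was added after seeing the data. On simulated data for the day-1 24 h comparison (17863 genes), 100% of genes changed by 2 log2 units and 51% of those changed by 1 were called. A change of 1 lies on the fold threshold itself, and 100% of those genes passed the looser rule. The simulated libraries were independent, with a fixed dispersion and no line effect, so these shares do not give the sensitivity in the real libraries.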

Additional observations from a re-analysis of the deposited data

Results flagged for a closer look

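Ncoa4 in line 2 with PAM from day 1, at 3661 CP20M, lay far above the other 8 libraries of the day-1 24 h exposures, with a gap to the next of 0.511 of the whole range. It was the only such value among 20 groups of values examined, and chance gives about 1 in 20.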

How the results depend on the processing

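None of the 10 member results past the threshold reversed under any alternative run, and leaving out 1 library changed no count of members past the threshold by more than 1.5 times. By the looser rule the counts of members were 8 in the day-1 24 h exposures, 6 for 24 h of direct CAP, 7 with indirect CAP from day 1, 7 from day 2, 6 with PAM from day 1 and 4 from day 2. With the line as a replicate block the count was 1 for direct CAP 24 h against 30 min, 2 for 24 h of direct CAP and 2 for indirect CAP from day 1; for 24 h of direct CAP it was also 2 under quantile normalization and under 1 fit of all groups. With untreated lines 1 and 2 exchanged in the replicate block, chosen after seeing the data, the count was 1 for direct CAP for 30 min (Slc7a11), 2 for 24 h of direct CAP and 2 for indirect CAP from day 1. Signs changed only for log2 differences within 2 SE of 0, and the cause was not tested. Under quantile normalization Acsl4 became 0.0399 (PAM day 1 against direct 24 h), 0.0457 (PAM day 1), 0.0788 (day-1 24 h exposures), 0.00474 (direct 24 h) and 0.00372 (direct 30 min), Aifm2 0.0155 (PAM day 1 against direct 24 h) and 0.0832 (indirect day 2 against day 1), and Tfrc 0.0504 (indirect day 1 against direct 24 h). With the replicate block, in either labelling, Acsl4 became 0.028 (day-1 24 h exposures) and 0.0029 (direct 30 min), Gpx4 0.0261 (indirect day 1), and Ncoa4 -0.0423 (PAM day 2) and -0.00491 (indirect day 2).

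Leaving out each library in turn, Acsl4 ranged from -0.361 to 0.335 (PAM day 1 against direct 24 h), -0.371 to 0.268 (PAM day 1), -0.126 to 0.0983 (day-1 24 h exposures), -0.362 to 0.296 (direct 24 h against 30 min), -0.397 to 0.261 (direct 24 h), -0.214 to 0.186 (direct 30 min), -0.124 to 0.535 (indirect day 1 against direct 24 h) and -0.126 to 0.377 (indirect day 1). Aifm2 ranged from -0.19 to 0.0504 (PAM day 1 against direct 24 h), -0.095 to 0.145 (PAM day 2 against day 1), -0.0186 to 0.166 (direct 30 min) and -0.177 to 0.0498 (indirect day 2 against day 1). Fth1 ranged from -0.204 to 0.084 and Ftl1 from -0.19 to 0.0169 (both PAM day 1 against direct 24 h), and Ftl1 from -0.0159 to 0.0875 (direct 30 min). Gpx4 ranged from -0.148 to 0.0356 (indirect day 1). Ncoa4 ranged from -0.191 to 0.339 (PAM day 2), -0.226 to 0.0815 (indirect day 2 against day 1) and -0.0828 to 0.225 (indirect day 2). Slc40a1 ranged from -0.411 to 0.0308 (PAM day 1 against direct 24 h), -0.732 to 0.0588 (PAM day 2 against day 1) and -0.315 to 0.456 (PAM day 2). Slc7a11 ranged from -0.0496 to 0.0897 and Tfrc from -0.038 to 0.0473 (both indirect day 1 against direct 24 h).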
